A study of Mus musculus with 2 samples.

Results

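The BCL2 family decides whether a mitochondrion releases the proteins that start the intrinsic route of apoptosis. A set of 10 of its best known genes was taken here by name, and all were kept whatever their level: 10 of the 43346 mouse genes quantified. They are the survival genes Bcl2, Bcl2l1 (BCL-XL) and Mcl1, the effectors Bax and Bak1, and the BH3-only genes Bid, Bad, Bcl2l11 (BIM), Bbc3 (PUMA) and Pmaip1 (NOXA). The cells were primary megakaryocytes, the blood cells that release platelets, from mouse embryos at 14.5 days with male and female material pooled. The labels give no strain, no treatment and no source organ, and name 1 group with 2 libraries of polyadenylated RNA read from both ends. Both libraries cite the same biosample and donor although they carry biological replicate numbers 1 and 2, so the spread between them may be technical in part. The labels name no second condition, so levels are described and no condition is compared.

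In this family the effectors BAX and BAK form pores in the outer mitochondrial membrane, survival proteins hold them in check, and BH3-only proteins bind and neutralise the survival proteins or trigger the effectors. In the platelet lineage BCL-XL is known to restrain BAK and so to set the life span of platelets, and BCL-XL and MCL1 together are known to keep megakaryocytes alive. PUMA and NOXA are best known as genes that p53 switches on, and BIM as one that FOXO factors switch on. Much of the family's regulation acts on the proteins, which were not measured here.

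The depths were unequal. Replicate 1 summed to 42099216 expected counts (estimated fragments), 18.5 times the 2275922 of replicate 2. TPM is a transcript level per length, relative to all transcripts of the library, and values below are TPM in each library or mean ± SD over the 2 libraries (n = 2). All 12 megakaryocyte markers reached a mean of 1 TPM, led by Gp1bb, Gp9 and Itga2b, with summed levels of 18052 TPM in replicate 1 and 27277 in replicate 2. Of the macrophage markers 7 of 12 did (summed 874 and 229 TPM, led by C1qc, C1qb and C1qa, with Cd163, Timd4 and Vsig4 at 0), of the granulocyte markers 9 of 12 (863 and 150 TPM, led by Prtn3, Mpo and Csf3r, Ly6g at 0), and of the 9 erythroid markers found 7 (9589 and 15959 TPM, led by the globins Hba-a1, Hba-a2 and Hbb-bt). Markers of hepatocytes (56.5 and 9.85 TPM, led by Trf, Apoa1 and Afp, with Alb, Apoa2 and Ttr at 0), endothelial cells (132 and 71.7 TPM, led by Egfl7, Tie1 and Pecam1, Robo4 at 0), mast cells and basophils (50.05 and 4.75 TPM, led by Prss34, Hdc and Cpa3, Fcer1a and Mcpt4 at 0) and lymphoid cells (3.14 and 2.36 TPM, led by Cd79b, Lck and Pax5, with Cd3e, Cd3g and Rag1 at 0) were lower. Macrophage and granulocyte markers thus stood higher in replicate 1, and the erythroid sum stood higher in replicate 2. In that sum Hba-a1 had 4480 and 12715 TPM, while Hba-a2 (2506 and 2063 TPM) and Hbb-bt (1719 and 513 TPM) were lower in replicate 2. The counts of these globins were not whole numbers (Hba-a1 65779.1 and 8275.81, Hba-a2 41171.9 and 1558.19 in replicates 1 and 2). Fragments were thus divided among genes by estimation, and the opposite changes of Hba-a1 and Hba-a2 are uncertain. The part of macrophages, granulocytes and erythroid cells in the levels below was not tested. In bulk RNA, fewer cells of a type and less RNA per cell cannot be told apart.

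The 2 most abundant members, Bbc3 and Bcl2l1, each have annotated transcripts with different first exons. The sequences before the start sites of the models that took most of their counts are shown here, since results below turn on which start a model has. The 250 bases before each RefSeq start site (GRCm38.p6) are given 5′ to 3′ on the gene's strand, and capitals mark GC boxes (GGGCGG, or CCGCCC on the other strand), a motif bound by SP1-like factors. They lie before Bcl2l1-201 (chr2:152831729-152831978, minus strand), Bbc3-201 (chr7:16309333-16309582, plus strand) and Bbc3-202 (chr7:16310181-16310430, plus strand). The RefSeq start sites are 0, 33 and 24 bases from the starts of these GENCODE models.
Bcl2l1-201: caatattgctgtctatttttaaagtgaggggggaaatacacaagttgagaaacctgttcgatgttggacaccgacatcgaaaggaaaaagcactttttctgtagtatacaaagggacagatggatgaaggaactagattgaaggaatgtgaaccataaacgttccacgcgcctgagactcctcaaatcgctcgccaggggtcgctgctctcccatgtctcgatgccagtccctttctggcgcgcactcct
Bbc3-201: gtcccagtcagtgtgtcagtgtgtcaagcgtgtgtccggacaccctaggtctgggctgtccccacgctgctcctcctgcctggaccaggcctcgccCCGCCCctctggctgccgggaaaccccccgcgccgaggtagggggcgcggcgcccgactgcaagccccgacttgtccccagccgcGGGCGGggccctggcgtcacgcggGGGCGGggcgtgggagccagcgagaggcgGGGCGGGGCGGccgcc
Bbc3-202: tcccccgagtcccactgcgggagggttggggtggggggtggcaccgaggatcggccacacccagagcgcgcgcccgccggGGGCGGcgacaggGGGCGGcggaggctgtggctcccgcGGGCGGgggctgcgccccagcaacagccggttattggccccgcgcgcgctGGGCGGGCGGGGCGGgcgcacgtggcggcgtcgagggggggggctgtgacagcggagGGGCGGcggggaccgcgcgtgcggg
The Bcl2l1 window held 0 GC boxes and 47.6% G and C bases. The Bbc3 windows held 5 and 7 GC boxes, some of them overlapping, at 76.4% and 81.6% G and C. A GC box was present in 32.7% of all 32851 RefSeq windows of this length. The GATA motif (GATAA, or TTATC), found in 22.6% of all windows, and the STAT motif (TTCNNNGAA, the same on both strands), found in 7.02%, had no match in these 3 windows. That says only that these letters are not in these bases. Windows before other RefSeq start sites of both genes are not shown. The one before a site 194 bases from the start of Bbc3-202 held 1 GC box. The one of Bcl2l1 nearest Bcl2l1-209 held 1 GATA match.

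Among survival genes, Bcl2l1 stood far above the others. Its level was 480 TPM in replicate 1 and 1258 TPM in replicate 2 (869 ± 550.4), rank 309 and rank 131 among all genes. It supplied 68.8% and 83.0% of the summed TPM of the 3 survival genes, and replicate 2 was the higher library. The gene (chromosome 2, 152780668 to 152831728, GRCm38, minus strand) is the source of BCL-XL, and 9 transcripts of it were quantified.

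Mcl1, a short-lived survival protein, had 214 TPM and 253 TPM (234 ± 27.4), higher than 93.3% and 93.2% of the genes at 1 TPM or more. Its level was thus close in the 2 libraries, and Bcl2l1 stood 2.24-fold and 4.97-fold above it. Bcl2 itself, the founding member, was low, with 2.92 TPM and 4.22 TPM (3.57 ± 0.919). It lay above only 22.1% and 31.1% of the genes at 1 TPM or more in replicates 1 and 2. Bcl2l1 exceeded Bcl2 by 164-fold and 298-fold, and Mcl1 exceeded Bcl2 by 73.4-fold and 60.0-fold, in each library by TPM. The order Bcl2l1, Mcl1, Bcl2 held in both libraries with no overlap of their ranges.

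Both effectors were abundant. Bak1 (chromosome 17, 27019810 to 27029009, minus strand) had 269 TPM and 268 TPM (269 ± 0.771). Bax (chromosome 7, 45461697 to 45466898, minus strand) had 382 TPM and 127 TPM (254 ± 180). The ranges of the pair overlapped, with Bax 1.42 times Bak1 in replicate 1 and 0.473 times in replicate 2, so neither can be placed first. The close values of Bak1 rest on a different mix of transcripts in each library, described below, and its counts were not as close.

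The BH3-only genes spanned the widest range. Bbc3 (chromosome 7, 16308393 to 16318205, plus strand), which encodes PUMA, was the highest member of the whole family, at 1004 TPM in the first library and 5386 TPM in the second (3195 ± 3099). Its rank among all genes was 144 and 26. Replicate 2 was the higher library, and the ranges of Bbc3 and Bcl2l1 overlapped, although Bbc3 was the higher of the pair in each library by 2.09-fold and 4.28-fold. It alone supplied 86.1% and 98.0% of the summed BH3-only TPM. By counts, which are not divided by length, the order was reversed. Bcl2l1 had 42968 and 5305 counts beside 30118 and 4327 for Bbc3. Most of the TPM of Bbc3 lay on a short model, Bbc3-202, described below.

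Bad, a sensor of growth factor signals that is held by 14-3-3 proteins when phosphorylated, had 136 TPM and 76.6 TPM (106 ± 42.2), and replicate 1 was the higher. Bid, which links death receptors to mitochondria once caspase 8 has cut it, had 13.15 TPM and 12.7 TPM (12.9 ± 0.346). Bcl2l11, whose product BIM binds all survival proteins, had 12.7 TPM and 22.5 TPM (17.6 ± 6.92). Bid and Bcl2l11 changed places between the libraries and stood near the middle of the genes at 1 TPM or more, above 54.1% and 54.5% for Bid and above 53.4% and 64.7% for Bcl2l11.

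Pmaip1 was the only member under a mean of 1 TPM. It had 33 counts and 0.34 TPM in replicate 1 and 0 counts in replicate 2, where 3 counts, the most that a count of 0 allows, would be 0.646 TPM. An equal share of RNA would have given 1.32 counts in replicate 2, so neither a lower level of Pmaip1 nor one up to 2.96 times as high, the upper bound of its interval below, could be detected at this depth.

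By mean TPM the order was Bbc3, Bcl2l1, Bak1, Bax, Mcl1, Bad, Bcl2l11, Bid, Bcl2 and Pmaip1. Of the 9 neighbouring pairs in that order, 5 had ranges that did not overlap and 6 had the same order in both libraries. Bbc3 with Bcl2l1, Bak1 with Bax, Bax with Mcl1, and Bcl2l11 with Bid could not be separated by their ranges. A mean of 1 TPM was reached by 9 of 10 members, and 9 also reached 1 TPM in each library. Of all 43346 genes, 9858 reached that mean, and 27189 had no counts.

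**Figure D1:**
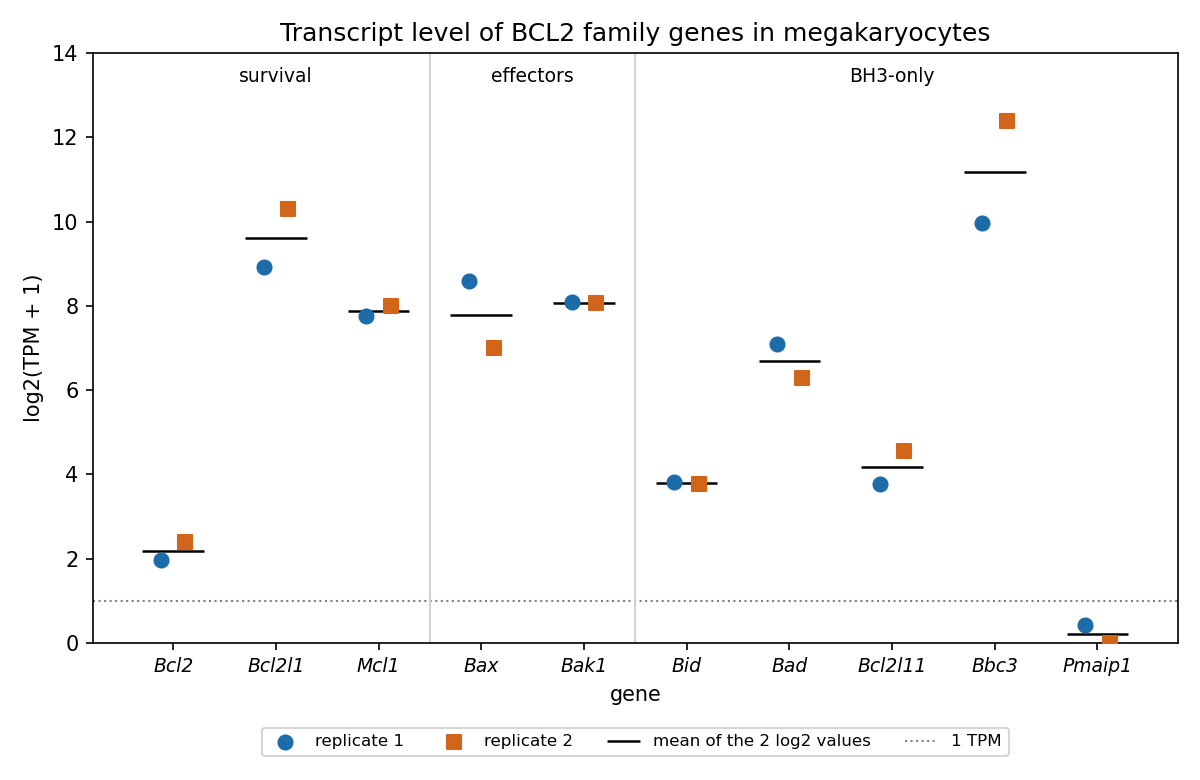
Level of the 10 genes on the log2(TPM + 1) scale (vertical axis) in replicate 1 (circles) and replicate 2 (squares), with a bar at the mean of the 2 log2 values and a dotted line at 1 TPM. Bbc3 and Bcl2l1 stand highest and Pmaip1 lies under the dotted line in both libraries.

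Sums over each role showed how the balance depended on single genes. The 3 survival genes summed to 697 and 1516 TPM, the effectors to 651 and 395 TPM, and the 5 BH3-only genes to 1166 and 5497 TPM. Survival over effector transcripts was thus 1.07 in replicate 1 and 3.84 in replicate 2 (2.45 ± 1.96). BH3-only over survival transcripts was 1.67 and 3.63, but without Bbc3 it was 0.233 and 0.0737. Transcript sums do not measure the balance of the proteins.

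The ratio of replicate 2 to replicate 1 was taken from expected counts scaled by TMM, a scaling that assumes most genes are level, with an exact 95% Clopper-Pearson interval that covers counting error only. It compares 2 libraries, not conditions, and has no replicate check. A gene was called past 2-fold among the 8194 genes that averaged 100 or more counts, and 9 of the 10 members met that count. Of these, 2 were higher in replicate 2 (15.7% of all genes were) and 1 was lower (33.8% of all genes were). With 9 genes these counts say nothing particular about the family.

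Bbc3 had 30118 and 4327 counts, a ratio of 3.60 (3.49 to 3.72), and Bcl2l1 had 42968 and 5305 counts, a ratio of 3.09 (3.01 to 3.18). Both were higher in replicate 2, where Bcl2l1 stood at 2331 CPM and Bbc3 at 1901 CPM, the count relative to the library's depth. Bax was the gene past 2-fold lower, with 10988 and 170 counts and a ratio of 0.388 (0.331 to 0.451). Bak1 (20270 and 502 counts, 0.621, 0.567 to 0.678) and Bad (3611 and 110 counts, 0.764, 0.626 to 0.923) lay between 1 and the 2-fold limit. Mcl1 (7996 and 414 counts) had a ratio of 1.30 (1.17 to 1.43).

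The intervals of the 3 low members included 1. Bid had 1059 and 48 counts and a ratio of 1.14 (0.832 to 1.52), Bcl2l11 513 and 23 counts and 1.12 (0.706 to 1.71), and Bcl2 634 and 22 counts and 0.870 (0.541 to 1.33). For Pmaip1 the interval reached up to 2.96. Ratios of 2 and 0.5 lie outside the intervals of Bid, Bcl2l11 and Bcl2 and inside that of Pmaip1.

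GC content differed among the members. Bbc3, the member richest in G and C (68.6% over its annotated transcripts, against a median of 52.3% over the genes counted), had the highest ratio. The next richest, Bad (58.7%), Bax (58.4%) and Bak1 (57.6%), had the 3 lowest ratios of the 9. With the trend of the ratio on GC content removed over all genes, Bbc3 fell below the limit at 1.88, while Bcl2l1 (54.1% G and C) kept 3.03. Removal lowered the ratios of Bad, Bax and Bak1 as well and raised that of Bcl2 (45.3% G and C) from 0.870 to 1.32. Those of Bcl2l11 and Bid also rose. The trend thus ran toward higher ratios in replicate 2 at higher GC content. Whether GC content set the ratios of the members was not tested. In the same setting Bax was at 0.258, Bad at 0.473 and Bak1 at 0.456, so 1 member was past 2-fold higher (15% of all genes) and 3 were past 2-fold lower (32.3%).

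**Figure D2:**
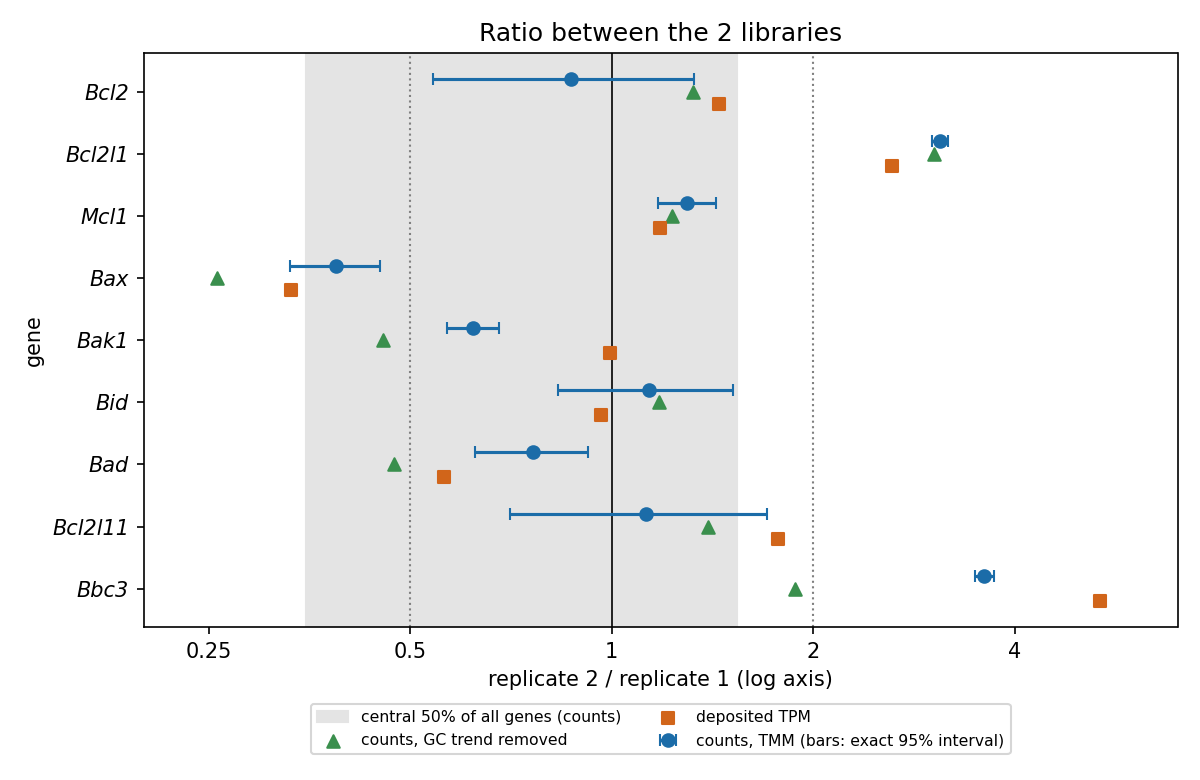
Ratio of replicate 2 to replicate 1 (log axis) for the 9 members that averaged 100 or more counts, from TMM-scaled counts with exact 95% intervals (circles), from the same counts with the GC trend removed (triangles) and from the deposited TPM (squares). The grey band holds the central 50% of all 8194 genes, dotted lines stand at 2-fold, and Bbc3 and Bcl2l1 lie to the right of the band.

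The deposited TPM gave other ratios than the counts. Part of the gap is the scaling between libraries, which TMM sets and TPM does not: Bax, Bid and Bcl2l1, with effective lengths that changed little, had TPM ratios of 0.332, 0.963 and 2.62 beside count ratios of 0.388, 1.14 and 3.09. TPM also divides by an effective length that depends on which transcripts are thought present. The effective length of Bbc3 was 765 bases in replicate 1 and 433 in replicate 2, and its TPM ratio was 5.37. That of Bak1 was 1920 and 1008 bases, and its TPM ratio was 0.996 beside a count ratio of 0.621. Bcl2 (5539 and 2804 bases) had a TPM ratio of 1.45 beside 0.870, and Bcl2l11 (1030 and 551 bases) one of 1.77 beside 1.12. The effective lengths were 734 and 722 bases for Bax, 2054 and 2042 for Bid, and 2283 and 2270 for Bcl2l1.

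Transcripts were compared by their share of the gene's TPM and by their share of its counts, with exact 95% Clopper-Pearson intervals for the latter. These intervals take no account of the uncertainty of assigning a fragment to a transcript. Of 8 members with several quantified transcripts and a mean of 1 TPM, 6 had the same leading transcript by TPM in both libraries, and by counts 4 did. The exceptions by TPM were Bcl2 and Bak1, and by counts Bcl2, Bad, Bcl2l11 and Bbc3.

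Bcl2l1 was nearly uniform. Bcl2l1-201, with 233 codons as in BCL-XL, took 96.3% of the counts in replicate 1 (interval 96.1 to 96.5) and 100% of 5305 in replicate 2 (99.9 to 100). Bcl2l1-202, which has the same coding bases behind another first exon, took 1489 counts in replicate 1 and 0 in replicate 2, a share of 3.46% (3.29 to 3.64) against at most 0.0695% by the interval. The start site whose upstream bases are printed first above was thus that of the model with nearly all counts. None of the 9 quantified models joins a shortened first coding exon to the second, as in BCL-XS, the death-promoting splice form, so that form was not quantified.

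The counts of Bbc3 were divided between models with different first exons. Bbc3-201, the model with the full 193 codons, took 64.2% of counts in replicate 1 (63.6 to 64.7) and 26.5% in replicate 2 (25.2 to 27.8). Bbc3-202, a model of 485 bases that starts at another first exon and stops inside the coding part, took 29.3% (28.8 to 29.8) and 72.0% (70.6 to 73.3). Because it is short, it took 64.1% and 92.2% of the TPM. The high TPM of Bbc3 in replicate 2 is thus 4966 TPM on Bbc3-202 and 370 TPM on Bbc3-201, beside 643 TPM and 294 TPM in replicate 1. The intervals of the count shares did not overlap between the libraries. The coding exons that the models share do not tell their first exons apart. The models also differ in length and in their ends, so these shares are not counts of fragments on either first exon.

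Mcl1 was given mostly to a model with a part of its coding sequence removed. Mcl1-202, with 285 codons and no untranslated bases, took 69.4% of counts (68.4 to 70.4) and 75.5% (70.9 to 79.4), and 91.3% and 93.5% of the TPM. Mcl1-201, with 331 codons and a length of 3485 bases in the tables, took the rest. The 138 bases that Mcl1-202 lacks (chr3:95658909-95659046, GRCm38, plus strand) lie in the first coding exon and keep the reading frame. They are printed in capitals with 20 coding bases on each side, above the same bases as joined in Mcl1-202, from GENCODE M21 transcripts.
Mcl1-201: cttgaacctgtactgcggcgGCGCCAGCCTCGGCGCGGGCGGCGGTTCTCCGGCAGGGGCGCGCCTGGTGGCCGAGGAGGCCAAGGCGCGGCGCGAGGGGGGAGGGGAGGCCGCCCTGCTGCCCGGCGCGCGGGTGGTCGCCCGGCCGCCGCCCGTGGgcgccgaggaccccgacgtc
Mcl1-202: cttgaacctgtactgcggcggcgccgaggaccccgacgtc
The models also differ in length and in their ends, so the share of Mcl1-202 is not a count of fragments across this junction.

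Bak1 showed a similar limit. Bak1-201 took 76.6% of counts in replicate 1 (76.0 to 77.2) and 74.7% in replicate 2 (70.7 to 78.4), and Bak1-202, the model of the full 209 codons, 23.4% (22.8 to 24.0) and 10.3% (7.83 to 13.4). Bak1-201 holds an added exon of 20 bases (chr17:27021663-27021682, minus strand), a number that is not a multiple of 3, and is annotated as a target of nonsense-mediated decay. The exon is shown in capitals between its coding neighbours, above the same place in Bak1-202.
Bak1-201: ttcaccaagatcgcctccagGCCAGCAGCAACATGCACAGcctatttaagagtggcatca
Bak1-202: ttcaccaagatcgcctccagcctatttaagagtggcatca
A neuronal splice form with a small added exon, N-BAK, is known for this gene, and whether it uses this exon was not examined. The 2 models differ as well in the first exon, 168 bases in Bak1-201 and 599 in Bak1-202, so fragments there bear on the shares too. Bak1-203, a model of 426 bases in the tables, took 0 counts in replicate 1 and 75.1 in replicate 2, or 14.97% of counts (11.9 to 18.4) and 54.1% of TPM. This short model goes with the fall of the effective length of Bak1 in replicate 2.

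Bcl2l11 is known to make an extra long, a long and a short form of BIM, which differ in how tightly the dynein light chain and kinases can hold them. The models of these sizes are Bcl2l11-205 (196 codons), Bcl2l11-203 (140 codons) and Bcl2l11-204 (110 codons). In replicate 1 they took 199, 54.3 and 197 of 513 counts, and the noncoding Bcl2l11-206 took 63.4. By TPM the short Bcl2l11-204 led with 73.5%, since it is 672 bases long and Bcl2l11-205 is 5036. In replicate 2 Bcl2l11-204 took 21.7 of 23 counts, Bcl2l11-203 1.29 and Bcl2l11-205 0, a share of 0% with an upper bound of 14.8% beside 38.8% (34.6 to 43.2) in replicate 1. The coding exon of 90 bases that the short form lacks beside the long form (chr2:128128925-128129014, plus strand) is shown in capitals with its coding neighbours.
Bcl2l11-203: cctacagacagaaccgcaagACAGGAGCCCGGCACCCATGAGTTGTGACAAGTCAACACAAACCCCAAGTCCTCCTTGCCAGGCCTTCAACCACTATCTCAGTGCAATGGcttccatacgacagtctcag

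Bcl2 had 526 of 634 counts on Bcl2-201, the model of 236 codons with both exons, in replicate 1 (83.0%, 79.8 to 85.8). In replicate 2 it had 1.41 of 22 counts on Bcl2-201 and 20.6 on Bcl2-202, a single-exon model of 199 codons (93.6%, 77.2 to 99.9). The leading model thus turned over, at 22 counts in the shallower library. Bad was shared among Bad-204 (50.9% of counts, 49.3 to 52.5, and 42.6%, 33.3 to 52.5), Bad-201 (18.98% and 51.1%) and Bad-202 (26.1% and 6.29%). Bid had all its counts on Bid-201. Bax and Pmaip1 had 1 quantified model each, while GENCODE M21 lists 6 and 3, so their splicing was not measured.

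**Figure D3:**
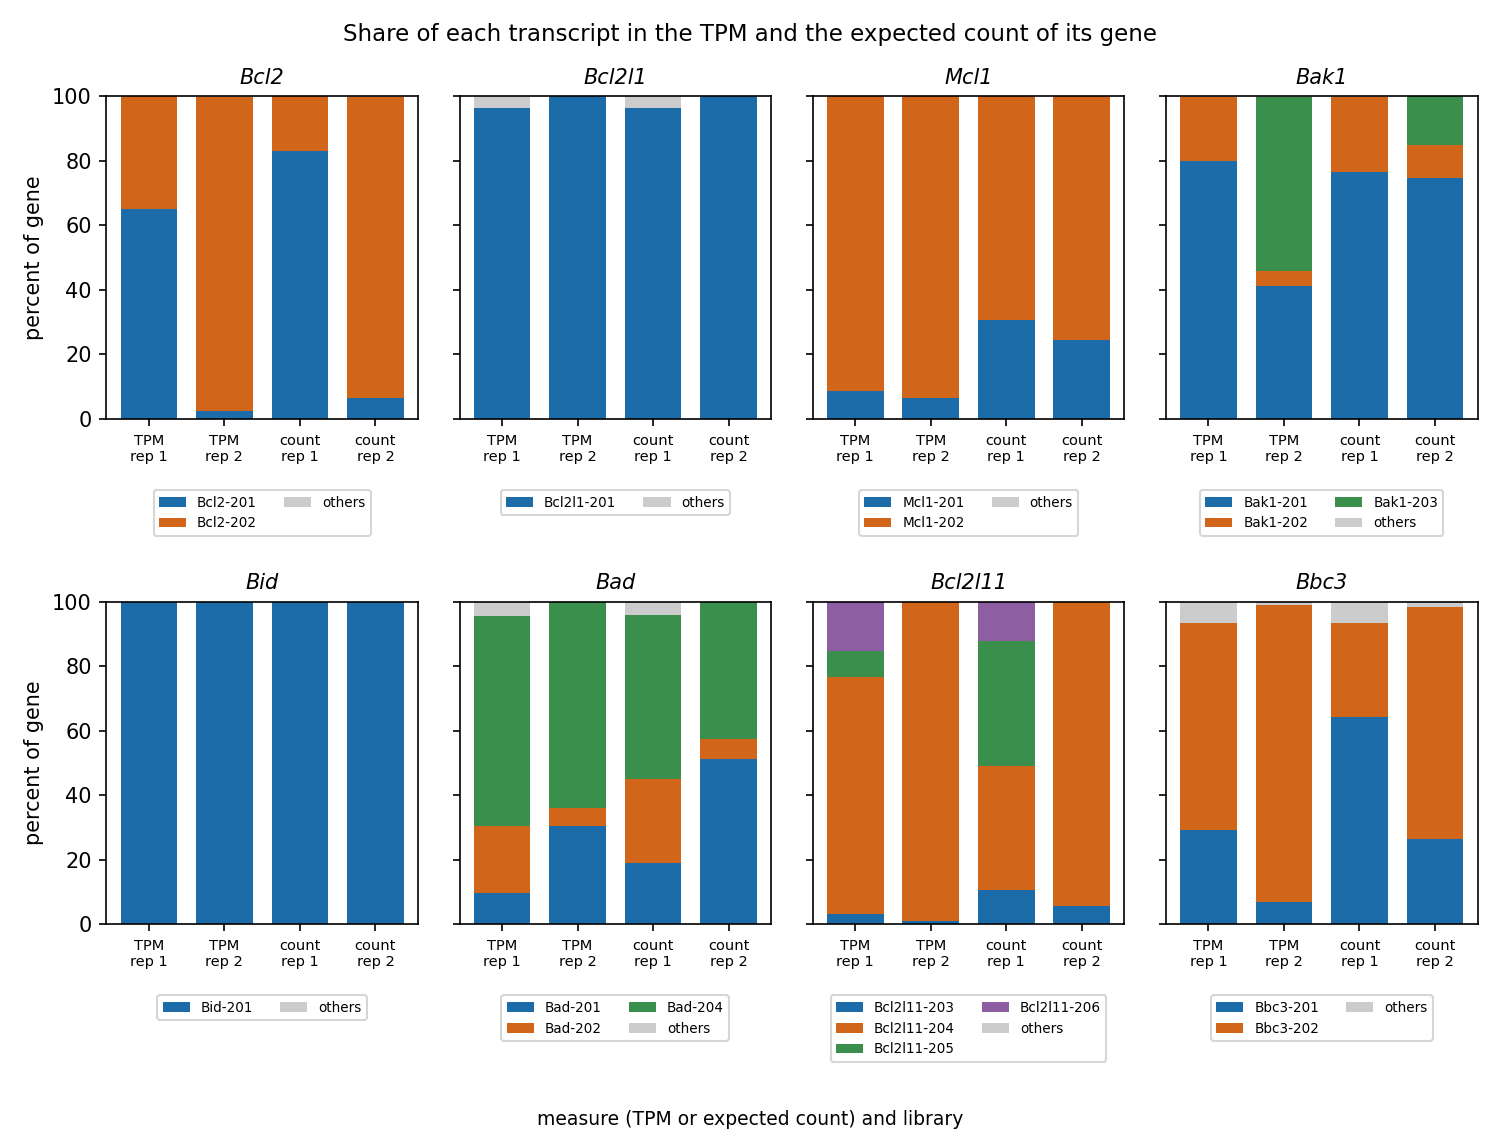
Percent of each gene taken by its transcripts in replicates 1 and 2, by TPM (left pair of bars) and by expected count (right pair), for the 8 members with several quantified transcripts; transcripts under 10% in every bar are joined as others. Bcl2l1 and Bid rest on 1 transcript, while Bcl2, Bak1, Bad, Bcl2l11 and Bbc3 show different shares in the 2 libraries.

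Neighbouring genes touch some members. Gpr137 overlaps Bad by 620 bases on the opposite strand and had 5064 and 240 counts, beside 3611 and 110 for Bad. Bcl2l13 overlaps Bid by 913 bases on the opposite strand and had 1332 and 17 counts. Ggnbp1 covers all of Bak1 on the opposite strand, with 58 and 0 counts. Whether the counting used strand is not given in the sources used here, so fragments in these opposite-strand overlaps may be divided wrongly. On the same strand, Gm45808, annotated as protein coding, overlaps Bax by 915 bases, and Gm44260 overlaps Bid by 2094 bases. Neither was quantified, and whether their fragments add to the counts of Bax and Bid was not examined.

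Other BCL2 relatives were mostly low. Of 15, 8 reached a mean of 1 TPM. The mitophagy receptors Bnip3 (125 and 67.8 TPM) and Bnip3l (66.8 and 35.7 TPM) were highest, with Bcl2l12 (71.9 and 46.3 TPM), and Bmf, a BH3-only gene, had 6.21 and 12.1 TPM. The survival gene Bcl2l2 (BCL-W) had 4.56 and 10.7 TPM on 500 and 5 counts. Bcl2l13 (5 and 1.35 TPM), Bik (2.87 and 2.03 TPM) and Bcl2a1b (2.06 and 0 TPM) followed. Bok (0.8 and 0 TPM), Bcl2a1a (0.3 and 0 TPM) and Bcl2l10 (0 and 0.5 TPM) stayed under 1 TPM, and Hrk, Bcl2a1d, Bcl2l14 and Bcl2l15 had no counts. The Bcl2a1 genes are near-identical copies and their values are uncertain. Of the 6 relatives that averaged 100 or more counts, 3 were past 2-fold lower in replicate 2 and 0 higher, beside 33.8% and 15.7% over all genes, with a median ratio of 0.546 beside 0.814 over all genes. The intervals of all 3, Bcl2l2 (0.081 to 0.589), Bcl2l13 (0.186 to 0.514) and Bnip3l (0.386 to 0.618), reached past the 2-fold limit. With the GC trend removed 2 were lower (32.3% over all genes), since Bnip3l moved from 0.492 to 0.741.

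Downstream of the mitochondrion, transcripts were far scarcer than those of the family's leading members. All 11 apoptosome and caspase genes reached a mean of 1 TPM, but their median was 3.69 TPM in replicate 1 and 2.20 in replicate 2, below the medians of 11.3 and 7.54 TPM over the 9858 detected genes. Endog, a mitochondrial nuclease, had 15.8 and 28.8 TPM, Casp6 36.9 and 1.07 TPM, and Casp2 1.17 and 13.5 TPM. Casp2 rested on 147 and 10 counts, under the count minimum, with a count ratio of 1.71 (0.801 to 3.23). Aifm1, the lowest, had 2.73 and 0 TPM. Apaf1, the scaffold of the apoptosome, had 2.84 and 5.2 TPM, its partner Casp9 6.81 and 4.69 TPM, and Cycs, cytochrome c, 8.86 and 0.18 TPM. Of 7 genes with enough counts, 5 were past 2-fold lower in replicate 2 (33.8% over all genes) and 1, Endog, was higher (15.7%). With the GC trend removed 5 were lower (32.3% over all genes) and 0 higher (15%). The intervals of 2 of the 5, Casp9 (0.490, 0.158 to 1.16) and Dffa (0.448, 0.163 to 0.985), reached past the 2-fold limit. Cycs had 1039 and 1 counts (ratio 0.0241, 0.00061 to 0.135) and Casp6 878 and 2 (0.0571, 0.0069 to 0.207). Cycs has many processed copies in the genome, so its value is uncertain.

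All 7 inhibitors of apoptosis and their antagonists reached a mean of 1 TPM, although Diablo (7.1 and 0.36 TPM) and Birc2 were under it in replicate 2, with Birc5 (67.2 and 60.6 TPM), a gene of dividing cells, Htra2 (47.7 and 28.5 TPM) and Birc6 (9.74 and 19.1 TPM) highest and Birc2 lowest (3.65 and 0 TPM). Of 6 counted, 1 was past 2-fold higher (15.7% of all genes were) and 1 lower (33.8%) in replicate 2. Mitochondrial channel and carrier genes were more abundant, led by Ppif, cyclophilin D (227 and 464 TPM), Vdac2 (314 and 107 TPM), which is known to bind BAK, and Slc25a4 (44.0 and 26.3 TPM), with Vdac3 lowest (14.7 and 0.42 TPM). Of 6 counted, 1 was past 2-fold higher (15.7% over all genes) and 2 were lower (33.8%).

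The death receptor route was low, with 7 of 9 genes at 1 TPM and medians of 3.32 and 2.11 TPM. Tnfrsf1a (60.6 and 10.2 TPM), Tradd (31.4 and 35.5 TPM) and Ripk1 (3.32 and 9 TPM) led, and Fas was lowest (0.62 and 0 TPM). Casp8, which cuts BID, had 2.33 and 0.44 TPM. Of 6 counted, 1 was past 2-fold higher (15.7% over all genes) and 3 were lower (33.8%) in replicate 2, and 4 were lower after removal of the GC trend (32.3%).

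Genes whose products act on the family's proteins were well expressed, with 16 of 17 at 1 TPM and medians of 60.7 and 34.8 TPM. Dynll1, a dynein light chain that tethers BIM, had 532 and 582 TPM. Pim1 (293 and 606 TPM) and Akt1 (400 and 244 TPM), kinases that phosphorylate BAD, followed, and Usp9x, a deubiquitinase of MCL1, was lowest at 0.95 and 0.09 TPM. Of 16 counted, 3 were past 2-fold higher (Gsk3b, Pim1 and Pim2, beside 15.7% over all genes) and 3 lower (Huwe1, Ywhae and Ywhah, beside 33.8%). With the GC trend removed, Pim2 (1.36), Huwe1 (0.639) and Ywhah (0.748) were no longer past 2-fold, while Fbxw7 (2.52) and Akt1 (0.386) were. That left 3 higher (15% over all genes) and 2 lower (32.3%). Of the factors upstream of BH3-only genes 5 of 6 reached 1 TPM. Ddit3 had 165 and 34.8 TPM, Trp53 51.2 and 71.0 TPM, Foxo3 13.9 and 56.2 TPM, and Trp73 was lowest at 0.05 and 0 TPM. By counts the ratio of Foxo3 was 1.23 (1.02 to 1.48). Of 5 counted, 1 was past 2-fold higher (15.7% over all genes) and 1 lower (33.8%). Over these 7 lists, 60 of 71 genes reached a mean of 1 TPM, beside 9858 of all 43346 genes. Calls in the lists rest on the ratio alone. The intervals of further called genes, among them Endog, Birc6, Ripk1, Casp8, Huwe1 and Ywhah, also reached past the 2-fold limit.

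**Figure D4:**
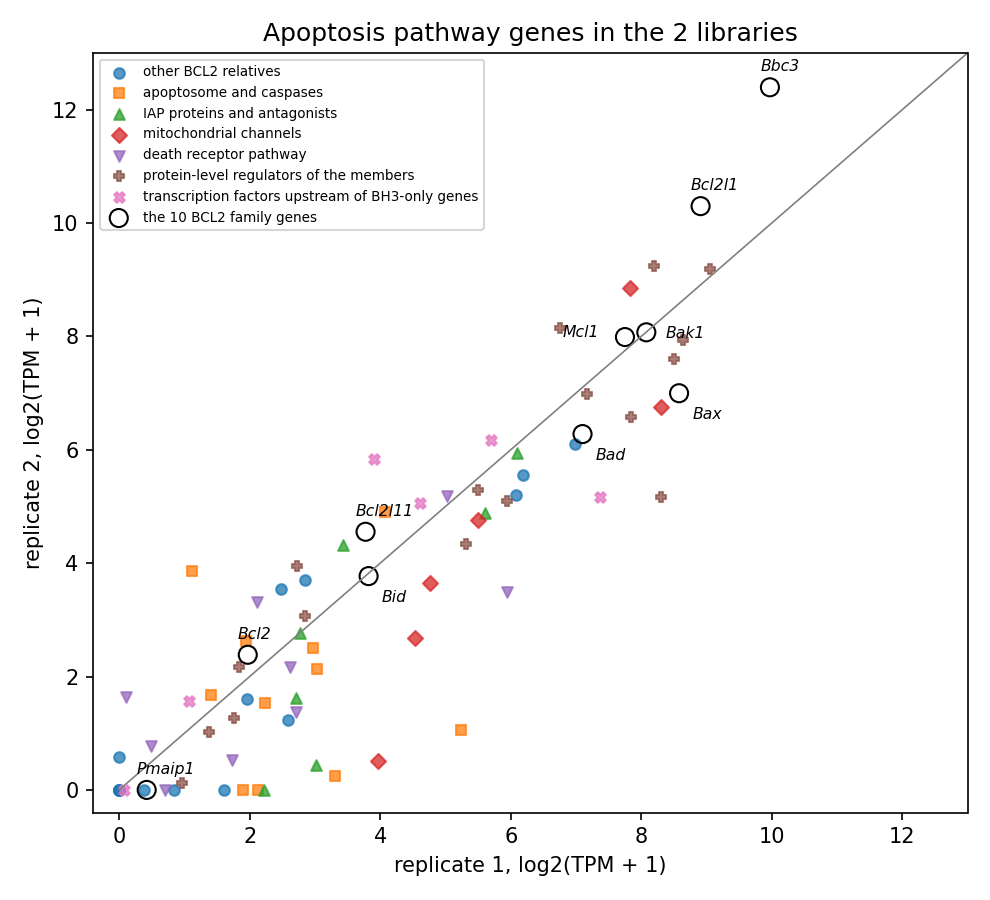
Level of the 71 other pathway genes (filled symbols by list) and of the 10 BCL2 family genes (open circles, named) on the log2(TPM + 1) scale in replicate 1 (horizontal axis) and replicate 2 (vertical axis), with the line of equal values. Bbc3 and Bcl2l1 stand highest, above the line, and several genes of the apoptosome and caspase list lie near 0 in replicate 2.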

How the data were processed

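RNA of 1 group of 2 megakaryocyte libraries was analysed from the authors' gene and transcript tables (mm10 and GENCODE M4, per the file lists deposited beside them). No aligner or quantifier is named in the labels or headers. Per the file headers, the values are expected counts (estimated fragments) and the length-scaled TPM and FPKM, as maximum likelihood values and posterior means. The percent of a gene per transcript, deposited by the authors, was recomputed from TPM. The 26345 rows without an Ensembl gene identifier, with 15 counts in replicate 1 and 0 in replicate 2, were left out. Symbols, positions, GC content and transcript names came from GENCODE M21 (GRCm38, the assembly of mm10), which gave a symbol and a GC value for 98.0% of genes and matched all 10 members. Ahsp of the erythroid list and some other list genes are not reported here.

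Counts were rounded. TMM factors (1.16 and 0.859) came from edgeR 4.0.16 in R 4.3.3 on genes averaging 10 or more counts, and DESeq2 1.42.0 gave alternative size factors. The GC trend was the median log2 ratio in 20 bins. A count of 0 allows 3 counts, or 0.0713 CPM in replicate 1 and 1.32 CPM in replicate 2. No molecular identifiers are given, so intervals (95%, Clopper-Pearson) and floors cover counting error only. No p-value was computed. The members and lists were chosen with earlier results of these data known. Named genes were all members and BCL2 relatives, the 3 highest and the lowest of each other pathway list, the 3 highest markers of each cell type and those at 0 in both libraries, and further genes chosen after their values were seen (Apaf1, Casp9, Cycs, Casp8, Dffa, Diablo, 5 of the 6 regulators past 2-fold, Fbxw7). Python 3.11.15, numpy 2.4.6, pandas 2.3.3, scipy 1.17.1 and matplotlib 3.10.9 did the rest.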

Additional observations from a re-analysis of the deposited data

How the results depend on the processing

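Of the 10 members, 9 reached a mean of 1 TPM, and this count was 9 with posterior mean TPM, in each library alone and with 1 TPM asked of both, 10 at 0.1 TPM and 8 at 5 TPM. The survival to effector ratio of 2.45 was 3.84 without replicate 1 and 1.07 without replicate 2, and ranged from 1.97 (without Mcl1) to 2.45 in the other settings. Among members past 2-fold higher in replicate 2, the count of 2 became 1 with the GC trend removed, where Bbc3 dropped out. Among those lower, the count of 1 became 3 with the GC trend removed (Bax, Bak1 and Bad) and 2 under total counts (Bax and Bak1). It was also 2 with a minimum of 10 counts and with no filter, which add Pmaip1 at 0 counts in replicate 2, below the floor. DESeq2 size factors, a minimum of 50 CPM and ratios of TPM left the counts at 2 and 1. The counts were not retaken from posterior mean TPM. By that measure Bcl2l1 (471 and 896 in replicates 1 and 2) was within 2-fold, and Bad (134 and 57.6) was past 2-fold lower. Bbc3 (985 and 3818) stayed past 2-fold higher and Bax (374 and 90.35) past 2-fold lower. Mcl1 (210 and 180) was lower in replicate 2, the reverse of its TPM. Its mean fell from 234 to 195, and that of Bak1 from 269 to 229, each by more than its SD. These moves were not particular to single genes. In replicate 2 the posterior mean lay below the TPM by a like proportion for Bbc3, Bcl2l1 (896 beside 1258), Bak1 (193 beside 268), Bax and Mcl1. Bad was also lower there (57.6 beside 76.6). In replicate 1 both measures were close (Bcl2l1 471 beside 480). At a minimum of 50 CPM the background turned from 15.7% higher and 33.8% lower to 26.4% higher and 15.8% lower. The leading transcript was the same for 6 of 8 members by TPM and by posterior mean TPM, and for 4 of 8 by counts. Pathway genes at 1 TPM numbered 52 without replicate 1 and 59 without replicate 2, beside 60 of 71. Depth limits the low members most, with 22 to 48 counts for Bcl2, Bcl2l11 and Bid in replicate 2. No paired analysis was possible because the labels give 1 group.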
